A study of Mus musculus with 18 samples.

Results

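Toll-like receptors are pattern recognition receptors that bind microbial molecules and molecules set free by damaged cells. In the retina they are best known on microglia, the resident macrophages, and are also found on glia, endothelium and retinal pigment epithelium. Ligand binding brings the adaptors MyD88 or TRIF (encoded by *Ticam1*) to the receptor, and kinases such as IRAK4 carry the signal on to transcription factors of the NF-kappaB and interferon regulatory factor families. Here, 10 genes of this system were followed in the mouse retina after bright light, as named members of a chosen list: the receptors *Tlr2*, *Tlr3*, *Tlr4*, *Tlr7* and *Tlr13*, the co-receptor *Cd14*, the trafficking protein *Unc93b1*, the adaptors *Myd88* and *Ticam1*, and the kinase *Irak4*. These are 10 of 23420 gene symbols counted, and all 10 were among the 15196 genes with enough counts for a test.

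Whole-retina RNA was sequenced from 9 wild-type BALB/cJ mice, an albino strain, in 3 groups of 3. Naïve mice are labelled as having had no light and no treatment, vehicle-treated mice had DMSO and light, and TD139-treated mice had daily intraperitoneal TD139 at 15 mg/kg, dissolved in DMSO, and light. TD139 is a small-molecule inhibitor of galectin-3, a sugar-binding protein made by activated microglia and macrophages. Mice were 8 to 10 weeks old and of both sexes, and light-exposed mice spent 16 h in darkness and then 1 h under white light of 15000 lux, with injections begun 1 day before and retinas taken 4 days after it. Vehicle-treated and naïve mice therefore differ by light and by vehicle treatment together, which cannot be told apart. The mouse was the replicate, and each library held between 26171887 and 30201517 reads on genes. Levels are given as CPM, counts scaled to library size after TMM normalization, and a count of 3, taken as the floor of detection, stood for 0.0993 to 0.115 CPM before that scaling. Floors and counting intervals cover counting error only.

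The labelled tissue was checked against marker lists. *Gnat1*, the rod transducin subunit, stood at 15200 to 19100 CPM in naïve mice, at 9210 to 13000 CPM with vehicle and at 13800 to 16300 CPM with TD139, and retinal pigment epithelium transcripts such as *Rpe65* (14.8 to 42.4 CPM over all mice) were present, although *Best1* was at 0 in 7 of 9 mice. Of 6 rod markers, 4 were called lower with vehicle than in naïve mice, and of 6 Müller glia markers 3 were called higher. With TD139 against vehicle, 3 of 6 rod markers were called higher, and 2 of 6 Müller glia and 2 of 4 retinal pigment epithelium markers lower. The summed level of 6 endothelial markers was 227 to 296 CPM in naïve mice, 367 to 541 CPM with vehicle and 523, 282 and 268 CPM with TD139, so mouse 1 of that group stood apart here too. *Kdr* alone made up most of this sum (138 to 211, 276 to 428 and 190 to 419 CPM in the 3 groups), while *Pecam1* stayed between 6.64 and 11.1 CPM in all mice. Of these 6 markers, 0 were called with vehicle against naïve and 1 was called lower with TD139 than with vehicle. Reads outside genes made up 19.1 to 19.9% in naïve mice, 16.5 to 19.4% with vehicle and 21.3 to 22.8% with TD139, and the part of these differences in the values below was not tested. The summed level of 9 microglial markers was 43.3 to 51.0 CPM in naïve and 127 to 158 CPM in vehicle-treated mice. In TD139-treated mice 1, 2 and 3 it was 82.8, 44.2 and 35.3 CPM. TD139-treated mouse 1 thus stood apart from the other 2 of its group, and values without it are given where it moved them most.

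The first comparison asks how the system responded to light damage in vehicle-treated mice. Of the 10 genes, 5 rose (*Tlr2*, *Tlr3*, *Tlr7*, *Tlr13* and *Myd88*, adjusted p under 0.05 by edgeR's quasi-likelihood test), where 4.91% of all tested genes were called higher and 2.89% lower. Each of the 10 had its 3 vehicle-treated mice above all 3 naïve mice, a separation shown by 16.6% of all tested genes. With the additional cut-off used in the study, a log2 fold change of at least 2, there remained *Tlr2*, *Tlr7* and *Tlr13*, 3 of the 10 against 1.24% of all genes. The median log2 fold change was 1.29 over the 10 genes and 0 over all tested genes.

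**Figure D1:**
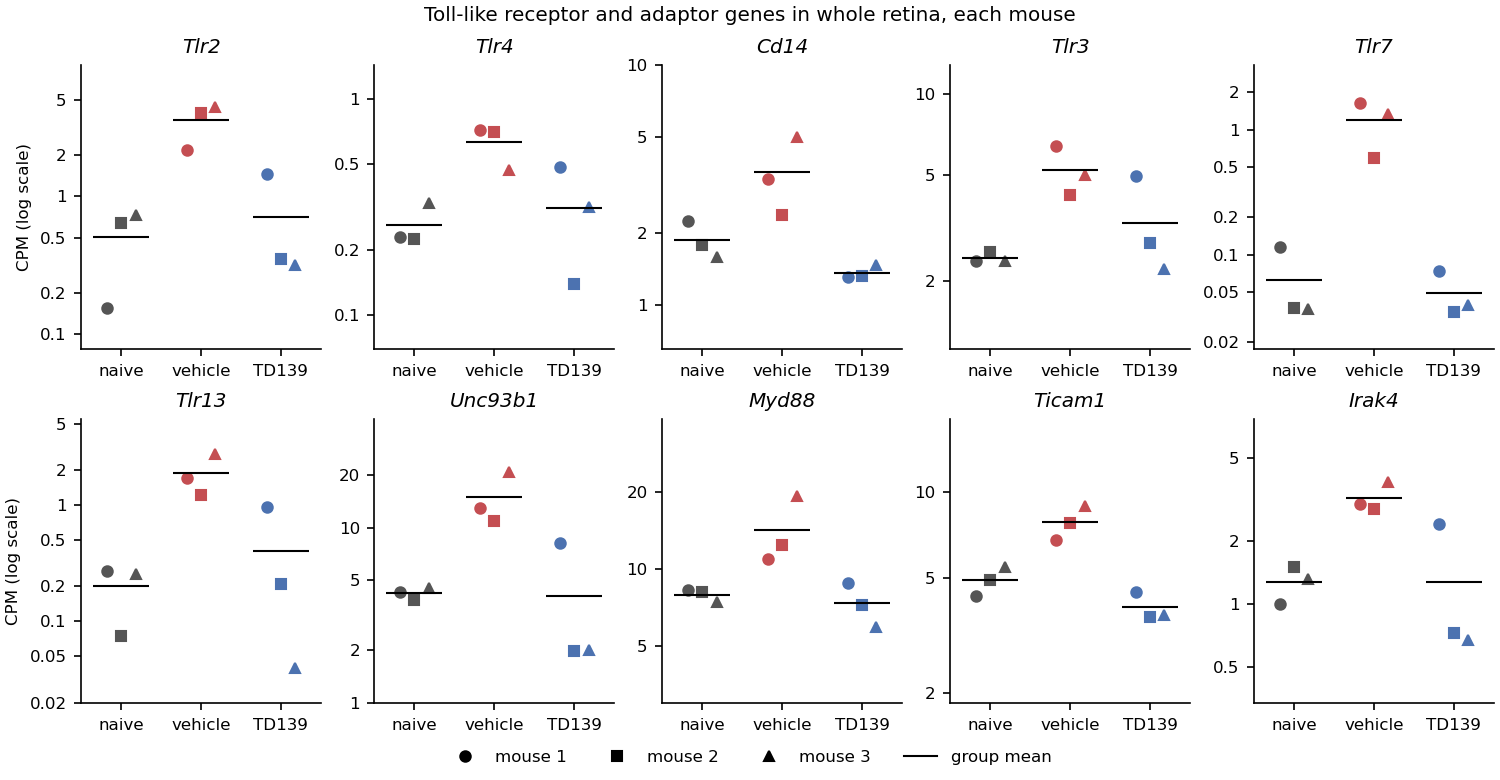
Level of each of the 10 genes in CPM (log scale, 1 panel a gene) by group, with 1 symbol for each mouse and a line at the group mean (n = 3). Vehicle-treated mice lie above naïve mice in all 10 panels, and TD139-treated mouse 1 (circle) lies nearest to them in its group for every gene but *Cd14*.

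Among the receptors of the cell surface, *Tlr2* responds to bacterial lipoproteins and pairs with *Tlr1* or *Tlr6*. Its level was 0.154, 0.641 and 0.733 CPM in naïve mice and 2.18, 4.05 and 4.50 CPM in vehicle-treated mice, with no overlap. It rose 6.96-fold, a log2 fold change of 2.80 (SE 0.65, adjusted p = 0.032). *Tlr4*, the receptor for lipopolysaccharide, was close to the floor, with 6, 6 and 9 counts in naïve and 20, 20 and 14 counts in vehicle-treated mice. The groups did not overlap, but the log2 fold change of 1.25 (SE 0.50) did not pass (adjusted p = 0.136). *Cd14*, which delivers lipopolysaccharide to *Tlr4* and also assists other receptors, stood at 2.23, 1.77 and 1.58 CPM in naïve and 3.36, 2.36 and 5.0 CPM in vehicle-treated mice. The lowest vehicle-treated mouse was only just above the highest naïve one, and the log2 fold change of 0.94 (SE 0.30) did not pass (adjusted p = 0.0766).

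In the main fit the highest log2 fold changes of the set belonged to 2 of the 3 endosomal receptors, *Tlr7* and *Tlr13*. With run 2 alone *Tlr2* (3.89) stood above *Tlr13* (2.91). *Tlr7*, which senses single-stranded RNA, had 3, 1 and 1 counts in naïve mice, at or under the floor in each, and 46, 17 and 40 counts in vehicle-treated mice. Pooled over the mice this is 5 against 103 counts, a depth-scaled ratio of 19.1 with a 95% exact counting interval of 7.93 to 60.1. The fitted log2 fold change was 4.16 (SE 0.63, adjusted p = 0.0127).

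*Tlr13*, a mouse receptor for bacterial ribosomal RNA, had 0.269, 0.0754 and 0.257 CPM in naïve and 1.72, 1.23 and 2.75 CPM in vehicle-treated mice. It rose by a log2 fold change of 3.22 (SE 0.81, adjusted p = 0.0396). *Tlr3*, the receptor for double-stranded RNA, had 2.38, 2.56 and 2.38 CPM in naïve mice, which lay close together, and 6.43, 4.19 and 5.0 CPM in vehicle-treated mice. Its rise was smaller and just passed the test, with a log2 fold change of 1.09 (SE 0.30, adjusted p = 0.0494).

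*Unc93b1* encodes the membrane protein that takes *Tlr3*, *Tlr7* and *Tlr13* products from the endoplasmic reticulum to endosomes. Its level was 4.30, 3.88 and 4.54 CPM in naïve mice and 12.9, 10.9 and 20.9 CPM in vehicle-treated mice. The mice were clearly apart and the fold was 3.51, but the log2 fold change of 1.81 (SE 0.53) was not called (adjusted p = 0.0677). It was called with only these groups in the fit (adjusted p = 0.0038) and without TD139-treated mouse 1, which shares in the estimate of the spread (adjusted p = 0.0014).

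In the main fit the 2 adaptors had the lowest log2 fold changes of the set, with *Cd14* (0.94, SE 0.30) close above. With run 1 alone *Cd14* (0.78) was below *Myd88* (0.83) and *Ticam1* (0.89). *Myd88*, the adaptor of nearly all Toll-like receptors, stood at 8.26, 8.10 and 7.44 CPM in naïve and 10.9, 12.4 and 19.4 CPM in vehicle-treated mice, and rose 1.80-fold (log2 fold change 0.85, SE 0.23, adjusted p = 0.0447). *Ticam1*, the adaptor of *Tlr3* and of endocytosed *Tlr4*, went from a mean of 4.92 ± 0.578 to 7.84 ± 1.07 CPM (SD, n = 3), which missed the threshold (log2 fold change 0.67, SE 0.19, adjusted p = 0.0529). *Irak4*, the first kinase to join MyD88, had means of 1.27 ± 0.257 and 3.23 ± 0.525 CPM (SD, n = 3), without overlap and without a call (log2 fold change 1.34, SE 0.45, adjusted p = 0.0842).

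Which of the genes passed depended on single mice. The number called was 0 without naïve mouse 2, 1 when naïve mouse 1 or 3, or mouse 1 or 3 of the vehicle group, was left out, 3 without vehicle-treated mouse 2, 2 without TD139-treated mouse 2, 4 without TD139-treated mouse 3 and 8 without TD139-treated mouse 1. Calls over all genes fell too, from 746 higher to 1 without naïve mouse 2, 62 and 140 without naïve mice 1 and 3, and 219 and 65 without vehicle-treated mice 1 and 3. *Tlr7* was called in 8 of these 9 fits, *Tlr2* and *Tlr13* in 3, *Tlr3* in 2 and *Myd88* in 1. The sequencing run mattered as well. *Tlr2* had a log2 fold change of 2.22 with run 1 alone (adjusted p = 0.0781, not called) and of 3.89 with run 2 alone (adjusted p = 0.0106), and *Tlr13* had 3.81 and 2.91, called in both. *Tlr3* was called in neither run alone (adjusted p = 0.0754 and 0.0574), and *Myd88* not in run 2 (adjusted p = 0.0565).

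To show the sequence in front of the genes that rose, windows of 250 bases before and 50 bases after the RefSeq start on GRCm38.p6 are given for the 4 of the 5 called genes that have one, each 5′ to 3′ on the strand of the gene. *Tlr2* is chr3:83841559-83841858 (minus strand), *Tlr3* chr8:45410331-45410630 (minus), *Tlr13* chrX:106143025-106143324 (plus) and *Myd88* chr9:119339969-119340268 (minus). Capitals mark letters that match 1 of 4 motifs searched on both strands, with overlapping matches joined into 1 run.
Tlr2: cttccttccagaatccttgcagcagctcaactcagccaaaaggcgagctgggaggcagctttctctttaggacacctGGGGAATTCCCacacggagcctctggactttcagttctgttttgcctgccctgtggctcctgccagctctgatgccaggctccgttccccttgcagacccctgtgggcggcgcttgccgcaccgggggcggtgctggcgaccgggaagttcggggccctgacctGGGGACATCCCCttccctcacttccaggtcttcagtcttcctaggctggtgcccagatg
Tlr3: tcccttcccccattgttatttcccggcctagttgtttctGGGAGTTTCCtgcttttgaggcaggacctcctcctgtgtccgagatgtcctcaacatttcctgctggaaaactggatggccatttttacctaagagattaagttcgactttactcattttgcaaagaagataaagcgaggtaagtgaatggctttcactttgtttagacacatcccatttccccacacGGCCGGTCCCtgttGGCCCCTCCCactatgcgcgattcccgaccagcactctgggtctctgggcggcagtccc
Tlr13: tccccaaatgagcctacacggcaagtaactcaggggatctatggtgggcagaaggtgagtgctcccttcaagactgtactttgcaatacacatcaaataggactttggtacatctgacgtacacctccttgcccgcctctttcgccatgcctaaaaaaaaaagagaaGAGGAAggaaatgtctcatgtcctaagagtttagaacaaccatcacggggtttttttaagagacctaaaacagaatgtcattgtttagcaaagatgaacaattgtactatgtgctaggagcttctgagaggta
Myd88: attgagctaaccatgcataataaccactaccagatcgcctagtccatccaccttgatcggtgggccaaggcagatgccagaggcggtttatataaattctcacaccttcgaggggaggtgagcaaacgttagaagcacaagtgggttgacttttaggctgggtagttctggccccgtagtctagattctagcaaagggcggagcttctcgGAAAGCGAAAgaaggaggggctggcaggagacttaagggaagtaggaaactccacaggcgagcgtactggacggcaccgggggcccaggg

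The motifs were GAGGAA, the core read by PU.1 and related ETS factors, an NF-kappaB-like motif of GGG and CC with any 5 bases between them, an interferon-response-like motif of GAAA, any 2 bases and GAAA again, and TGANTCA, read by AP-1. Of all 32851 promoter windows, 28.3%, 50.8%, 3.44% and 7.81% held them, in that order. Of the 6 genes with a window, *Tlr13* and *Ticam1* held GAGGAA, and *Tlr2*, *Tlr3*, *Ticam1* and *Irak4* held the NF-kappaB-like motif, which *Tlr2* had in a pair of runs, beginning 173 and 9 bases before the start. *Myd88* alone held the interferon-response-like motif, 40 bases before the start, and none held TGANTCA. *Tlr4*, *Tlr7*, *Cd14* and *Unc93b1* have no window in the table. These matches are descriptions of letters in the windows.

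The second comparison sets TD139-treated against vehicle-treated mice, both light-exposed. With TD139, 8 of the 10 genes fell against vehicle by edgeR's quasi-likelihood test (adjusted p under 0.05), where 16.2% of all tested genes were called lower and 17.2% higher. The same 8 had all 3 TD139-treated mice below all 3 vehicle-treated mice, a separation shown by 25.4% of all genes. *Tlr2*, *Tlr7* and *Tlr13* also passed the log2 cut-off of 2, that is 3 of the 10 against 1.53% of all genes. The median log2 fold change was −1.37 over the 10 genes and −0.02 over all tested genes. This comparison shares the vehicle-treated mice with the previous one, so high values in those mice enter both.

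**Figure D2:**
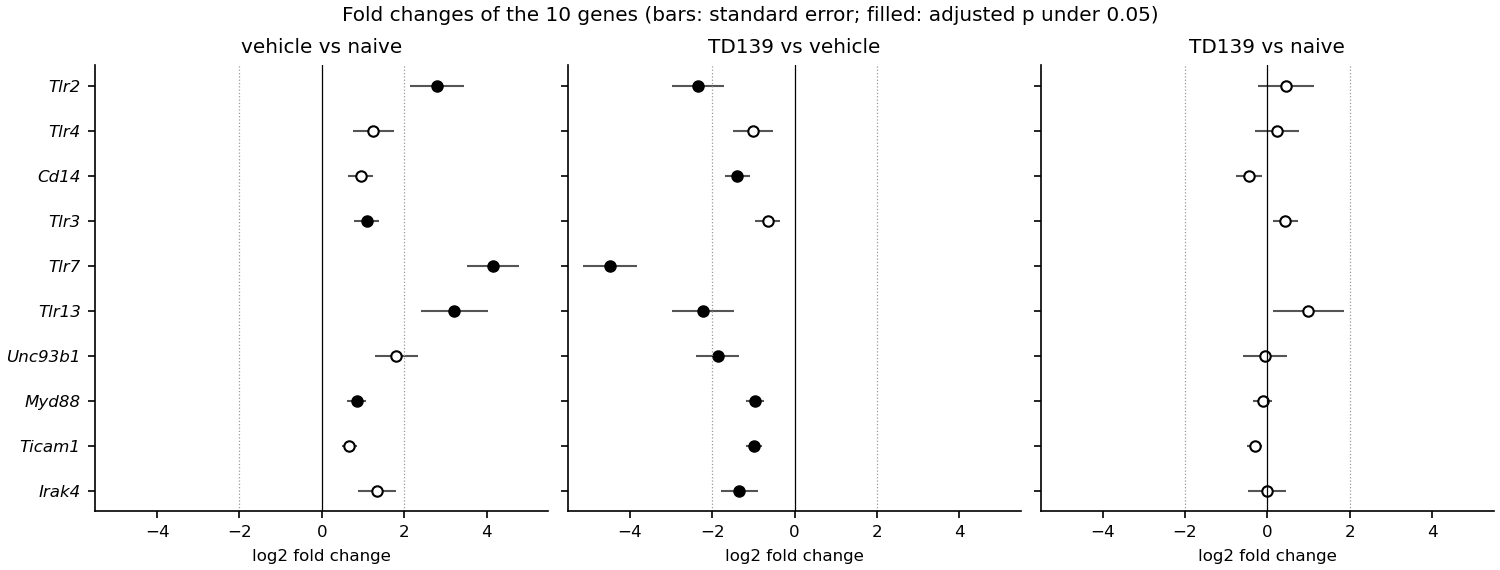
Log2 fold change (x axis) of the 10 genes with its standard error in the 3 comparisons, with filled points for an adjusted p under 0.05 and dotted lines at −2 and 2. *Tlr7* has the highest value with vehicle against naïve (4.16) and the lowest with TD139 against vehicle (−4.48), and no point is filled for TD139 against naïve, where *Tlr7* is not drawn because every mouse had at most 3 counts.

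*Tlr7* had 2, 1 and 1 counts in TD139-treated mice, all under the floor, against the 46, 17 and 40 of the vehicle-treated mice. The pooled ratio of vehicle to TD139 was 24.2 with a 95% exact counting interval of 9.18 to 90.6, and the fitted log2 fold change −4.48 (SE 0.65, adjusted p = 0.005). All 3 treated mice were thus as low as the naïve mice, mouse 1 included.

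*Tlr2* was at 1.45, 0.348 and 0.316 CPM and *Tlr13* at 0.964, 0.209 and 0.0395 CPM in TD139-treated mice 1, 2 and 3, so that mouse 1 lay between the other 2 mice and the vehicle-treated group. *Tlr2* fell by 2.34 on the log2 scale (SE 0.63, adjusted p = 0.0189). *Tlr13* fell by 2.22 (SE 0.75, adjusted p = 0.0421). Without mouse 1 the log2 fold changes were −3.41 and −3.85. The call of *Tlr2* held in 6 of 9 fits with 1 mouse left out, and that of *Tlr13* in 2 of 9, with −1.90 (adjusted p = 0.16) and −1.70 (adjusted p = 0.104) without TD139-treated mouse 2 or 3.

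*Tlr3* and *Tlr4* were the 2 genes that did not pass. *Tlr3* had 4.93, 2.78 and 2.21 CPM with TD139, where mouse 1 was higher than the lowest vehicle-treated mouse (4.19 CPM), and a log2 fold change of −0.65 (SE 0.30, adjusted p = 0.106). *Tlr4*, with 13, 4 and 8 counts, overlapped in the same mouse (log2 fold change −1.01, SE 0.49, adjusted p = 0.129, and −1.47 without it, adjusted p = 0.0625). *Tlr3* was called after correction for transcript length and GC content (log2 fold change −0.94, adjusted p = 0.0423) and without mouse 1 (−1.06, adjusted p = 0.0115).

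*Cd14* was the most even of the set under TD139, at 1.30, 1.32 and 1.46 CPM, and here mouse 1 was the lowest of its group. It fell 2.63-fold (log2 fold change −1.39, SE 0.31, adjusted p = 0.00935). *Unc93b1* had 8.19, 1.98 and 2.01 CPM, with mouse 1 nearer to the vehicle-treated mice than to the other 2, and fell by 1.87 on the log2 scale (SE 0.53, adjusted p = 0.0263). Without mouse 1 the value was −2.90. That call was lost under the length and GC correction (log2 fold change −1.51, adjusted p = 0.0574) and in 3 of 9 fits with 1 mouse left out. It was also lost with only the groups compared in the fit (−1.88, adjusted p = 0.0754).

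The adaptors and the kinase also fell. *Ticam1* was at 4.48, 3.69 and 3.75 CPM and fell by 0.98 on the log2 scale (SE 0.19, adjusted p = 0.0065). *Myd88*, at 8.82, 7.24 and 5.93 CPM, fell by 0.96 (SE 0.23, adjusted p = 0.0111). *Irak4*, at 2.41, 0.731 and 0.672 CPM, fell by 1.34 (SE 0.45, adjusted p = 0.0389), with −2.20 without mouse 1 and the call kept in 3 of 9 fits with 1 mouse left out.

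The count of 8 was 9 without TD139-treated mouse 1, 4 without vehicle-treated mouse 3 and 3 without TD139-treated mouse 2 or 3. Calls over all genes moved with it, from 2455 lower to 2931, 1286, 759 and 867 without these mice in that order. *Cd14*, *Tlr7* and *Ticam1* were called in all 9 such fits. Past the log2 cut-off there were 5 genes without TD139-treated mouse 1, and 1 without TD139-treated mouse 2 or 3 or mouse 3 of the vehicle group. The share of all genes past the cut-off in these fits is not given here, so this shift is not read as particular to the set.

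Between TD139-treated and naïve retinas no difference was called for these genes, which does not show that they were alike. By edgeR's quasi-likelihood test 0 of the 10 had an adjusted p under 0.05, where 5.10% of all genes were called in either direction, and 0 of the 6 that DESeq2 gave an adjusted p were called by it. An unadjusted p under 0.05 was reached by 0 of the 10, and by 29.6% of all genes. The calls over all genes, 413 higher and 362 lower, were themselves unstable, with 0 under the length and GC correction, with the replicate block, or when naïve mouse 1, naïve mouse 2, mouse 2 of the vehicle group, or mouse 2 or 3 of the TD139 group was left out, and 1 with only the groups compared. *Cd14* was the one gene of the 10 whose groups did not overlap, against 32.2% of all genes that were apart in either direction, with the TD139-treated mice below the naïve ones (log2 fold change −0.45, SE 0.31, adjusted p = 0.365). *Tlr13* had the highest point value, 1.00 (SE 0.87, adjusted p = 0.475), carried by mouse 1, and −0.62 without it. *Unc93b1* had a log2 fold change of −0.06 (SE 0.53) with all mice and was called lower without TD139-treated mouse 1, at −1.07 (adjusted p = 0.0396). For *Tlr7* no fold is given, since both groups lay at or under 3 counts in every mouse.

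The order of the genes within a group was set per kilobase of exon. In naïve retina *Myd88* led with 3.08 CPM per kb, followed by *Ticam1* (1.65), *Unc93b1* (1.40), *Cd14* (1.07), *Tlr3* (0.469), *Irak4* (0.254), *Tlr2* (0.169), *Tlr4* (0.0472), *Tlr13* (0.0465) and *Tlr7* (0.0155). Only *Myd88* and *Ticam1*, *Cd14* and *Tlr3*, and *Tlr3* and *Irak4* were neighbours whose mice did not overlap. With vehicle, *Unc93b1* stood second (4.91 CPM per kb, overlapping *Myd88* at 5.53) and *Tlr2* (1.19) was level with *Tlr3* (1.00) within the spread, while *Tlr4* was last (0.113). With TD139, *Myd88* (2.84) was again first and *Tlr7* (0.0121) again last.

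Gene positions are those of GENCODE M21 on GRCm38. The surface group lies at chr3:83836272-83841767 (*Tlr2*), chr4:66827584-66930284 (*Tlr4*) and chr18:36725067-36726798 (*Cd14*). The endosomal group lies at chr8:45395665-45411080 (*Tlr3*), chrX:167304929-167330558 (*Tlr7*), chrX:106143204-106160493 (*Tlr13*) and chr19:3935186-3949340 (*Unc93b1*). The sex of each mouse was not used here and was not set beside the X-linked *Tlr7* and *Tlr13*. *Myd88* (chr9:119335934-119341411), *Ticam1* (chr17:56269319-56276786) and *Irak4* (chr15:94543643-94581815) complete the set. Exons of *Myd88* share 290 bases with *Acaa1a* and those of *Irak4* 395 bases with *Twf1*, on opposite strands, and the strand setting of the counting is not given in the sources used here, so reads of these partners could enter the counts.

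A wider list of 73 other genes of the pathway was drawn up, of which 72 had a row in the tables and 56 enough counts for a test. With vehicle against naïve, 10 of the 56 rose (17.9%, beside 4.91% of all tested genes) and 0 fell (beside 2.89%), and the median log2 fold change was 0.25, against 0 over all genes. Of the endosomal proteases and transporters 4 of 6 rose: the cathepsins *Ctsb* (log2 fold change 0.92, adjusted p = 0.0134), *Ctsl* (1.37, adjusted p = 0.0235) and *Ctss* (1.62, adjusted p = 0.0184), proteases that cleave endosomal receptors, and the peptide transporter *Slc15a3*. Of 8 co-receptors and chaperones, *Ly86* (2.41, adjusted p = 0.018) and the scavenger receptor *Cd36* (2.28, adjusted p = 0.0127) rose. *Ly86* encodes the partner of the receptor-like protein encoded by *Cd180*, which rose from a mean of 0.0877 ± 0.022 to 2.83 ± 1.29 CPM (SD, n = 3, adjusted p = 0.0127).

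Of the other adaptors, *Ticam2*, which bridges *Tlr4* and *Ticam1*, went from 0.0244 ± 0.0423 to 0.554 ± 0.160 CPM (SD, n = 3, adjusted p = 0.0213), whereas *Tirap*, which bridges *Tlr2* or *Tlr4* and *Myd88*, had 8.12 ± 2.21 and 8.27 ± 2.37 CPM (adjusted p = 0.957). Only *Btk* of 18 kinases and ligases and *Irf8* of 6 transcription factors rose. *Irak1*, *Irak2* and *Irak3* were not called (adjusted p = 0.0942, 0.0751 and 0.13). *Tlr1* was the one further Toll-like receptor with enough counts, at 0.212 ± 0.0837 and 0.707 ± 0.0883 CPM (adjusted p = 0.085). *Tlr5*, *Tlr6*, *Tlr8*, *Tlr9*, *Tlr11* and *Tlr12* had too few counts, as did the cytokine genes *Tnf*, *Il1b*, *Il6*, *Il12b* and *Ifnb1*. The count of 10 was 0 without naïve mouse 2, 2 without naïve mouse 1 or mouse 3 of the vehicle group, and 5 without naïve mouse 3, fits in which few genes of any kind were called (1 to 140 higher).

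**Figure D3:**
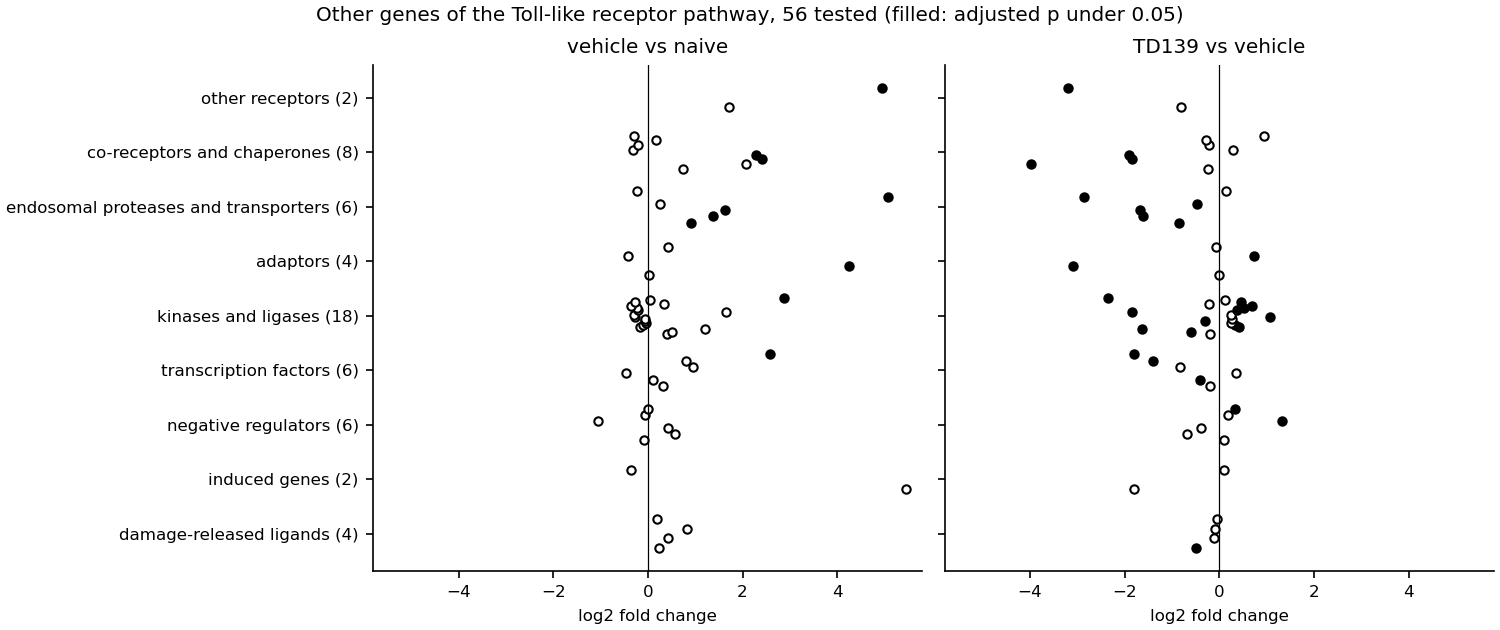
Log2 fold change (x axis) of the 56 other pathway genes tested, by class (number of genes in parentheses), for vehicle against naïve and TD139 against vehicle, with filled points for an adjusted p under 0.05. With vehicle 10 points are filled, all to the right of 0, and with TD139 19 are filled to the left and 10 to the right.

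With TD139 against vehicle, 19 of the 56 fell (33.9%, beside 16.2% of all tested genes) and 10 rose (17.9%, beside 17.2%), and the median log2 fold change was −0.20, against −0.02 over all genes. The share of higher genes was thus near the background. Of the endosomal proteases and transporters 5 of 6 were lower, among them *Ctsb* (−0.86, adjusted p = 0.00568), *Ctsl* (−1.61, adjusted p = 0.00589) and *Ctss* (−1.68, adjusted p = 0.00575). *Cd180*, *Ly86*, *Cd36*, *Ticam2*, *Irf8* and *Btk* were also called lower. Of the kinases of the *Irak4* family, *Irak2* (−0.60, adjusted p = 0.0202) and the inhibitory *Irak3* (−1.63, adjusted p = 0.0259) fell, and *Irak1* did not pass (−0.19, adjusted p = 0.301). Under the length and GC correction 6 of the 19 lost the call, among them *Irak2* (−0.41, adjusted p = 0.0692), the protease *Lgmn* (−0.09, adjusted p = 0.545) and *Slc15a3* (−2.82, adjusted p = 0.0606). The count of 19 was 10 without vehicle-treated mouse 3, and 7 and 8 without TD139-treated mice 2 and 3.

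The 10 genes called higher with TD139, a share near that of all genes, were the ubiquitin ligases *Traf6* (log2 fold change 0.41), *Traf3* (0.34) and *Peli1* (0.47), the kinase subunits and partners *Ikbkb* (0.38), *Ikbkg* (0.52), *Chuk* (0.69) and *Tab3* (1.08), the adaptor *Sarm1* (0.74), and the deubiquitinases *Tnfaip3* (1.33) and *Cyld* (0.34), which restrain NF-kappaB signalling. Under the length and GC correction only *Sarm1*, *Tab3* and *Chuk* of these 10 were still called. The other 7 lost the call, with *Cyld* turning to −0.13 while *Tnfaip3* stood at 1.05 (adjusted p = 0.056) and *Ikbkb* at 0.31 (adjusted p = 0.0634), and *Irf3* and *Slc15a4* came in, giving 5 in all. The number was 6 under library size alone, 2 without TD139-treated mouse 2, and 5 without TD139-treated mouse 3 or vehicle-treated mouse 3. Over all genes the share of calls that were higher was 51.6%, and it was 39.0% with library size alone and 63.5% with the length and GC correction.

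Because the retina was sequenced as bulk tissue, more cells of a type and more RNA per cell cannot be told apart. Of the 9 microglial markers, 7 were called higher with vehicle than in naïve mice, and 7 called lower with TD139 than with vehicle. With vehicle their summed level was 3.08-fold that of naïve mice and 2.62-fold that of TD139-treated mice. The summed level of 9 monocyte and macrophage markers was 1.32 to 2.60 CPM in naïve mice, 50.1 to 98.2 CPM with vehicle and 27.8, 1.39 and 1.26 CPM with TD139. *Lyz2*, which reactive microglia also express, was at 44.1 to 93.9 CPM with vehicle and 26.8 CPM in TD139-treated mouse 1, and so made up most of the sum there. Of the 9 markers, 4 had all vehicle-treated mice above all naïve mice, a separation shown by 16.6% of all tested genes. These were *Lyz2*, *Ms4a7* (0.564 to 2.89 CPM with vehicle), *F13a1* (0.107 to 0.529 CPM) and *Pf4* (0.179 to 0.317 CPM). *F13a1* and *Pf4* had at most 15 and 9 counts in any vehicle-treated mouse. Only 3 of the 9 markers had enough counts for a test, and 1 was called higher with vehicle than in naïve mice. *Ccr2*, a defining monocyte marker, was at 0 in all naïve mice and at 0.143, 0.317 and 0 CPM with vehicle. The part of such cells in the levels of the 10 genes was not tested. Neutrophil markers summed to at most 0.183 CPM and lymphocyte markers to 1.02 to 2.62 CPM, with overlapping groups.

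Each gene was therefore also set against the microglial markers of the same library, as its counts over the summed marker counts after adding 0.5 to each gene's count. On this scale a gene whose level stays the same falls when the marker sum rises, and the median log2 difference over all 15196 tested genes was −1.62 for vehicle minus naïve and 1.47 for TD139 minus vehicle. Of all genes, 0.895% were higher and 89.9% lower in all vehicle-treated than in all naïve mice, and 85.7% were higher and 1.05% lower with TD139 than with vehicle. *Tlr7* was 0.264, 0.129 and 0.127% of the marker counts in naïve, 1.19, 0.486 and 0.860% in vehicle-treated and 0.112, 0.118 and 0.168% in TD139-treated mice, so that it was higher with vehicle than in either other group without overlap (log2 difference 2.28 from naïve, and −2.60 for TD139 minus vehicle). The naïve and TD139 values rest on 1 to 3 counts a mouse, at or under the floor, so these sizes are loose, and the second was −3.13 with run 1 alone and −1.89 with run 2 alone. *Tlr13* was higher with vehicle than in naïve mice without overlap (log2 difference 1.60), but TD139-treated mouse 1 overlapped the vehicle-treated mice. *Tlr2* had a log2 difference of 1.34 with overlap, which was 0.59 without naïve mouse 1, and 0.75 and 2.18 with run 1 and run 2 alone.

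**Figure D4:**
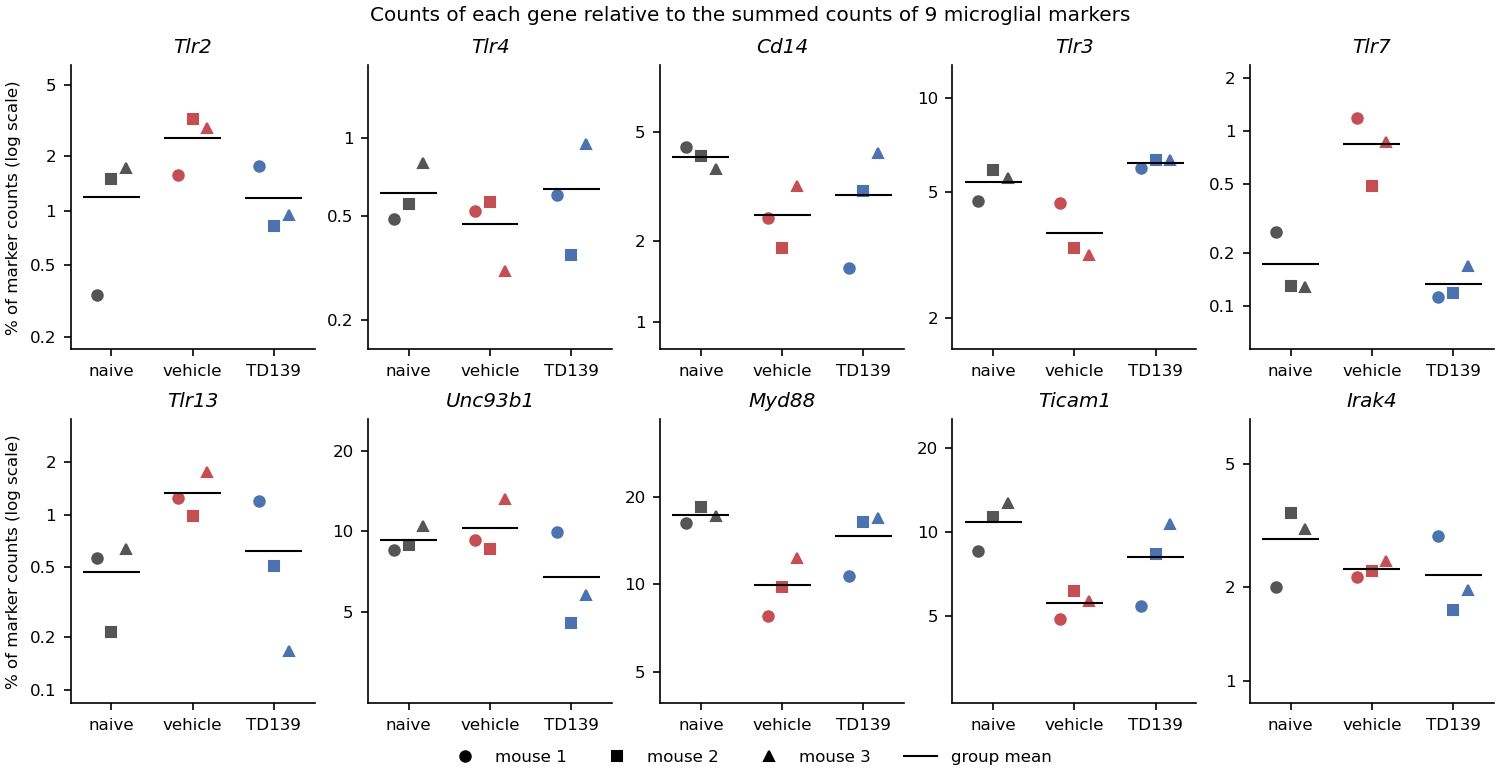
Counts of each gene as a percentage of the summed counts of 9 microglial markers in the same mouse (log scale, 0.5 added to each gene's count), by group, with a line at the mean (n = 3). *Tlr7* and *Tlr13* are higher with vehicle than in naïve mice, and *Cd14*, *Tlr3*, *Myd88* and *Ticam1* are lower, as are 89.9% of all genes on this scale.

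Of the 10 genes, 4 were lower on this scale without overlap, as most genes were. *Cd14*, *Tlr3*, *Myd88* and *Ticam1* were lower relative to the markers in all vehicle-treated than in all naïve mice, by log2 differences of −0.73, −0.55, −0.82 and −0.95, each smaller in size than the median over all genes. *Myd88*, for instance, was 16.2, 18.5 and 17.2% of the marker counts in naïve and 7.81, 9.81 and 12.3% in vehicle-treated mice. *Unc93b1*, *Irak4* and *Tlr4* had overlapping groups (log2 differences 0.13, −0.28 and −0.42). With TD139, *Tlr3* was higher relative to the markers than with vehicle (log2 difference 0.77, below the median over all genes), *Tlr7* was lower, and the other 8 of the 10 genes overlapped.

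With 3 mice against 3, an exact two-sided permutation test cannot give less than p = 0.1, which each non-overlapping pair of groups reached, and over the 30 tests the smallest adjusted value was 0.333. These ratios are therefore descriptions, and the part of a change in microglial RNA in the levels of the 10 genes was not tested.

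The 10 genes varied together over the 9 mice. Pearson's r of log2 CPM between pairs of them was 0.53 to 0.98 with a median of 0.84 over 45 pairs, where the mice come from 3 groups that themselves differ. *Unc93b1* and *Irak4* were the most alike (r = 0.975), and *Cd14* and *Tlr4* the least (r = 0.525). Outside the set, among 13087 genes averaging 50 counts or more, *Tlr13* was most like the Fc receptor *Fcgr3* (r = 0.989), *Unc93b1* most like *Rgs10* and *Cyba* (both r = 0.986), and *Myd88* most like *Igtp* (r = 0.996) and *Tap1* (r = 0.983). The nearest genes were *Gldc* for *Tlr2* (r = 0.988), *Zfp651* for *Tlr4* (r = 0.972), *Tmem179* for *Cd14* (r = 0.981), *Syt15* for *Tlr3* (r = 0.990), *Eif4ebp1* for *Tlr7* (r = 0.984), *Tbc1d22a* for *Ticam1* (r = 0.991) and *Parp3* for *Irak4* (r = 0.987). These values are descriptions over 9 mice that share their group differences.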

How the data were processed

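Retinal poly(A) RNA of 9 mice was made into Illumina Stranded mRNA libraries and read for 50 cycles from 1 end in 2 flow-cell runs. The authors deposited 18 tables of whole-number counts per gene symbol from BaseSpace RNA Express, 1 for each mouse and run; the study's data statement speaks of counts normalized with DESeq2, but the values are whole numbers with unequal totals and were used as raw counts; the submitters' processing notes name the build mm10, and the aligner, annotation release and strand setting are not given in the sources used here. Groups were taken from the labels, and both runs of a mouse were summed. The sources do not say whether mice shared litters or cages, so p-values measure the spread between these mice.

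Reads outside genes and ambiguous reads were left out. Genes were kept by filterByExpr, scaled by TMM and tested in 1 fit of all 3 groups with the robust quasi-likelihood F test of edgeR 4.0.16 in R 4.3.3, with Benjamini-Hochberg adjustment over 15196 genes; a standard error is the size of the log2 fold change over the square root of F. Of the gene symbols, 98.44% were matched to GENCODE M21 on GRCm38. Alternatives were DESeq2 1.42.0, limma 3.58.1 (voom), other scalings and filters, single runs, only the groups compared, the replicate number as a block, a spline correction for transcript length and GC content, and each mouse left out in turn. Ratios to microglial markers were compared with exact permutation tests in scipy 1.17.1.

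The members and lists were chosen with earlier results of these data known. All 10 members are named; pathway genes are named where at most 5 of a class were called in a direction, or where they are among the 6 called with the highest mean CPM or of the same family as a listed gene. On simulated counts for vehicle against naïve (15077 genes, 200 changed), edgeR found 168, with 13 false calls. Of these 168, 92 of 100 were at a log2 fold change of 2 and 76 of 100 at 1. DESeq2 found 176, with 36 false calls. The changed genes were drawn only from those above a minimum mean count. *Tlr4* and *Tlr7* lie below that minimum, so these rates do not cover them. With no gene changed but a trend with length added, edgeR made 1066 false calls of 15054 for TD139 against naïve, and 0 with the length and GC correction. The size of that trend was set by hand, and the correction fits the same quantity. This shows only that the correction runs as built, not how well it works on these data. Promoter windows come from RefSeq; a comparison of proteins was planned and is not reported here, nor are some single marker genes.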

Additional observations from a re-analysis of the deposited data

How the results depend on the processing

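All 10 genes kept a higher level with vehicle than in naïve mice, and a lower one with TD139 than with vehicle, in each alternative in which they were tested, and what moved was the number called. For vehicle against naïve, 5 genes became 9 with DESeq2 (1355 of all genes higher, against 746), 3 with run 1 or run 2 alone (8 genes tested, as *Tlr4* and *Tlr7* had too few counts in 1 run), 2 with the replicate number as a block and 0 to 8 when each mouse was left out, where calls of all genes also ran from 1 to 1167 higher (559 with the block). For TD139 against vehicle, 8 became 5 with only the groups compared or run 1 alone, 7 with the block and 3 to 9 when each mouse was left out, where all genes called lower went from 2455 to 2439, 2148, 2336 and 759 to 2931. The replicate numbers gave correlations of deviations of −0.26 to 0.28 between same-numbered mice and thus did not pair them. Past the log2 cut-off of 2, the 3 genes of either comparison became 1 with run 1 alone, and 0 to 3 and 1 to 5 when each mouse was left out. For these fits the share of all genes past the cut-off is not given. The pathway counts, without 1 mouse each, were 0 to 14 (main 10, higher with vehicle), 7 to 22 (main 19, lower with TD139) and 2 to 12 (main 10, higher with TD139, also 6 with library size alone and 5 with the length and GC correction). Over all genes the median log2 change, 0 with vehicle and −0.02 with TD139, was 0.09 and −0.10 with library size alone and −0.10 and 0.07 with the length and GC correction. These moved the share of called genes that were higher with vehicle from 63.0% to 77.6% and 32.2%. The cause of these changes was not tested.

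For ratios to microglial markers, genes with groups that did not overlap numbered as follows. Higher with vehicle than naïve, 2 became 1 with run 1 alone, and 3 with run 2 alone, without naïve mouse 3 or without vehicle-treated mouse 1. Lower with vehicle than naïve, 4 became 3 with the median of single-marker ratios or either run alone, and 5 without naïve mouse 1. Higher with TD139 than vehicle, 1 became 2 with the median of single-marker ratios or run 2 alone, and 1 to 3 when each mouse was left out; lower, 1 became 3 with run 2 alone and 1 to 5. Higher with TD139 than naïve, 1 (*Tlr3*, log2 difference 0.21) became 0 with the median of single-marker ratios or run 1 alone. Lower, 0 became 3 and 2 under these, and 0 to 3 when each mouse was left out. Shares of all genes are not given for this comparison or for the alternative settings of these ratios. The numbers are therefore not read as results about the genes.

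TD139 against naïve had no call with all mice, and signs turned. Without 1 mouse each, log2 fold changes were −0.60 (TD139-treated mouse 1 left out) to 0.82 for *Tlr2*, −0.21 (same mouse) to 0.61 for *Tlr4*, −0.62 (same mouse) to 1.53 for *Tlr13*, −1.07 (same mouse, the one call) to 0.28 for *Unc93b1*, −0.26 to 0.03 for *Myd88* and −0.85 to 0.31 for *Irak4*. Run 1 alone gave −0.01 for *Tlr2*, 0.12 for *Unc93b1* and 0.06 for *Irak4*, and run 2 alone 0.04 for *Myd88*. The length and GC correction gave −0.05 for *Tlr4*, 0.11 for *Unc93b1* and 0.06 for *Myd88*. *Irak4* was 0.03 with library size alone, 0.01 with no filter and 0.00 with only the groups compared. With 3 mice in a group and at most 20 counts in most libraries, *Tlr4*, *Tlr7* and *Tlr13* are limited by depth.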
